A study of Saccharomyces cerevisiae with 24 samples.

Results

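The GAL1-IFH1 strain YSS89 of the yeast Saccharomyces cerevisiae was compared with itself at 30 and 20 min after galactose was added, with 3 arrays at each time. These 6 arrays were chosen by their labels from the 24 of the series, and no measured value was used to choose them. YSS89 is a MATa strain in which the chromosomal IFH1 gene, tagged with 13 myc copies and marked with TRP1 (IFH1-13myc-TRP1), stands under the GAL1 upstream activating sequence marked with HIS3. The control strain YSS37 is a MATa strain with the same tagged gene and a wild-type promoter. Both strains grew in log phase at 30 °C in YPLG medium, and galactose was then added to 2%. YSS89 was sampled at 0, 20, 30, 40 and 60 and YSS37 at 0, 30 and 60, with 3 arrays each labelled as biological replicates. The times carry no unit in the labels and are taken as minutes. No YSS37 array at 20 min was analysed here and every culture received galactose, so the part of this step that is due to IFH1, to galactose or to time in the medium cannot be told apart.

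Ifh1 is a coactivator that Fhl1, a forkhead protein, holds at the promoters of ribosomal protein (RP) genes, which are bound by Rap1. These genes are among the most transcribed in growing yeast, and their output follows nutrients through the TOR and protein kinase A pathways. Ribosome assembly genes form a second large growth program that is driven by other factors, among them Sfp1, and repressed by Tod6, Dot6 and Stb3. Galactose is taken up by Gal2 and converted by the Leloir enzymes, while genes for lactate, glycerol and ethanol use are switched off when a better carbon source is sensed.

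Markers of mating type were read as a check of the MATa label. The a-factor genes MFA2 and MFA1 read 481.9 to 743 and 275 to 443.8 over the 6 arrays, whereas STE3, the a-factor receptor of alpha cells, read 3.1 to 9.7. The alpha-factor genes MF(ALPHA)1 and MF(ALPHA)2 read 1.1 to 10.2 and 4.1 to 4.9. Not every marker separated the types, since the alpha-cell genes AFB1 and SAG1 read 29 to 37.7 and 22.7 to 32.8, in the range of the a-cell gene AXL1 (21.4 to 31.8) and above ASG7 (1.2 to 13.7). All intensities given here are the deposited linear values. In bulk cultures, fewer cells holding a transcript and less of it per cell cannot be told apart.

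In 10 min, 361 of 5656 genes rose (6.38%) and 590 fell (10.4%), where a call is a limma p below 0.05 once adjusted over all 9275 probe sets (Benjamini-Hochberg). Changes of at least 2-fold were mostly falls, with 227 genes lower and 19 higher. Counted by probe set, 470 were higher (5.07%) and 667 lower (7.19%). The median change over all genes was 0.03 on the log2 scale. Within each time the arrays correlated at 0.978 to 0.983 over probe sets. Among the 227 genes that fell at least 2-fold, replicate b was the highest of the 3 arrays at 20 min for 60.4%, against 33.6% of all genes, and replicate a was the highest at 30 min for 54.6%, against 36.5%. Both of these arrays were in hybridization round 2, as was replicate a at 20 min, and the other 3 arrays were in round 3. With the round as a block, 946 of the 1137 called probe sets were also called. Without replicate b at 20 min, 647 probe sets in place of 1137 were called. The number was 747 without replicate c at 20 min, 756 without replicate b at 30 min and 678 without replicate c at 30 min. The ratio of the 3' to the 5' probe set of ACT1, a measure of RNA integrity and labelling, also differed between the times, at 1.52 to 1.58 on the 3 arrays at 20 min and 1.32 to 1.43 on the 3 at 30 min. It was 1.20 to 1.49 on the other 18 arrays, and its part in the results was not tested apart from a fit that holds it as a covariate, which called 522 probe sets. The same ratio overlapped between the times for the controls YER148W and YER022W. YER148W was at 3.32 to 3.73 at 20 min and 2.61 to 3.70 at 30 min, and YER022W at 3.28 to 4.72 and 2.45 to 3.68. For counts of list members, shares over all genes are given below only for the main fit and the values as deposited. Counts from the other fits have no such share beside them.

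**Figure D1:**
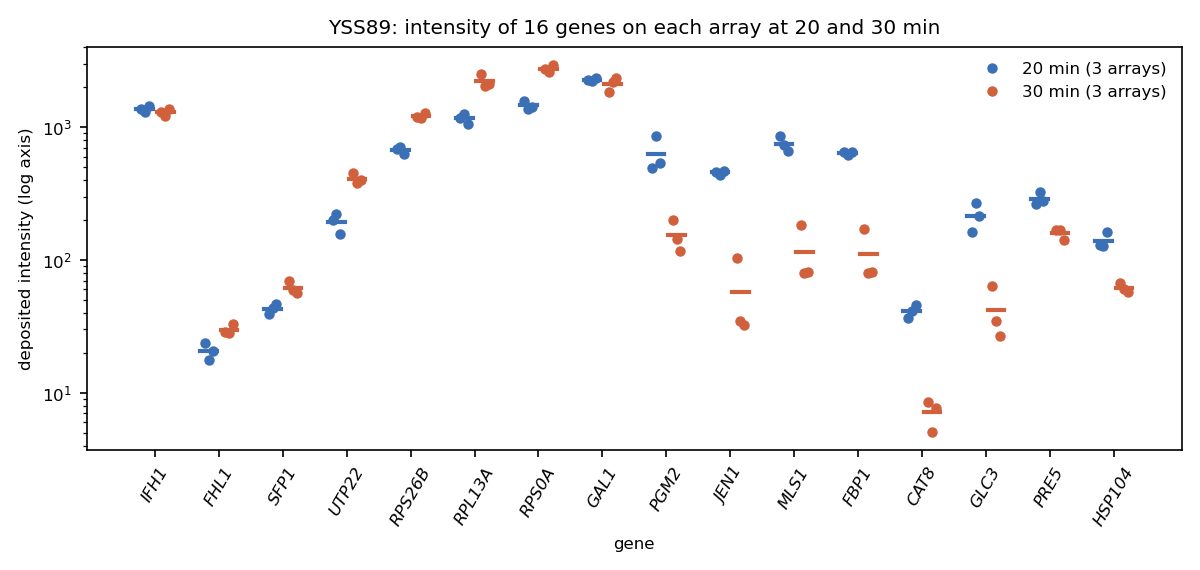
Deposited intensity (log axis) of 16 genes on each of the 3 YSS89 arrays at 20 min (blue) and 30 min (orange), with a bar at the mean of each group. IFH1 overlaps between the times, RP genes such as RPS0A lie higher at 30 min, and JEN1, MLS1, FBP1 and CAT8 lie far lower.

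IFH1 itself did not pass the test over this step. Its intensity was 1355, 1305 and 1436 on replicates a, b and c at 20 min and 1296, 1218 and 1374 at 30 min, so the groups overlapped. The change was -0.18 ± 0.17 (log2, SE, adjusted p = 0.58 by limma). The mean had been 26.4 at time 0 and went on to 1006 at 40 min and 572 at 60 min. IFH1 was thus close to its highest measured level at both ends of the step.

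Of 25 regulators of RP genes on the list, 7 rose (28%, against 6.38% of all genes) and 0 fell, with a median change of 0.21. As deposited 5 were called, in a setting that called 5.62% of all genes higher. With median centring 3 were called and with the ACT1 ratio as a covariate 5, and the share over all genes is not given for these fits. The 5 under the ACT1 ratio include RAP1, which is not among the 7. UTP22 rose most. It encodes a protein of small-subunit assembly that binds Ifh1 in the CURI complex together with Rrp7 and casein kinase 2. Its intensity was 199.8, 220.4 and 157.9 at 20 min and 453.8, 377 and 398.6 at 30 min, without overlap, a change of 1.18 ± 0.20 (adjusted p = 5.6e-04). Its 6 probe sets ran from 0.68 to 1.21, of which 3 were called. The other CURI genes did not pass the test, with RRP7 at 0.23, CKA1 at 0.03, CKA2 at 0.21, CKB1 at 0.22 and CKB2 at 0.03.

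FHL1, whose product holds Ifh1 at RP promoters, rose by 0.49 ± 0.16 (adjusted p = 0.045), and with the ACT1 ratio as a covariate it was at 0.37 (adjusted p = 0.31). It was dim, at 17.6 to 23.6 at 20 min and 28.1 to 32.7 at 30 min, and the ranges did not overlap. RAP1 was at 64, 66.6 and 65 and then at 92.2, 84 and 84.8. That change of 0.42 did not pass (adjusted p = 0.088), although the arrays did not overlap. With the ACT1 ratio as a covariate RAP1 was at 0.64 and was called (adjusted p = 0.042). Among regulators of ribosome assembly genes, the activator SFP1 rose by 0.51, and the repressors TOD6 and DOT6 rose by 0.99 and 0.44. DOT6 lost its call as deposited (adjusted p = 0.052) and with the ACT1 ratio (0.059). SFP1 lost its call with median centring (adjusted p = 0.0535). ABF1, a general promoter-binding factor used by some RP genes, rose by 0.51, and TOR2, a TOR kinase, by 0.41. ABF1 lost its call with the ACT1 ratio (adjusted p = 0.061) and TOR2 as deposited (0.064). The corepressor CRF1, which competes with Ifh1 for Fhl1, was at 6.5 to 11.2 and then 4.3 to 5.8 (change -0.76, adjusted p = 0.11). HMO1, a high-mobility-group protein of RP and rRNA genes, changed by -0.26 (adjusted p = 0.41).

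RP genes were higher at 30 min, and by how much depended on how the arrays were put on one scale. In the deposited values all 3 arrays at 30 min read above all 3 at 20 min for 78 of the 81 RP genes measured, as did 20.5% of all genes. RPS0A, of the small subunit, read 1577, 1371 and 1417 and then 2711, 2573 and 2913. RPS26B read 678.2, 709.5 and 631.6 and then 1198, 1161 and 1269. RPL13A, of the large subunit, read 1177, 1257 and 1051 and then 2504, 2032 and 2093. In each of these genes the lowest array at 30 min was well above the highest at 20 min.

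The 81 genes together made up 13.3% ± 0.404 (SD, n = 3) of the summed intensity of an array at 20 min and 18.3% ± 0.479 at 30 min. Single arrays ran from 12.9% to 13.7% and from 17.9% to 18.8%. The share had been 8.70% at time 0, and it was 17.1% at 40 min and 16.5% at 60 min, so its highest mean was at 30 min. In YSS37 the share was 10.1% at time 0, 12.0% at 30 min and 12.2% at 60 min.

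Quantile normalization gives every array the same distribution. After it, 21 of the 81 RP genes rose (25.9%, against 6.38% of all genes) and 0 fell, and the median change was 0.25. With the values as deposited the median was 0.63 and 74 rose, at backgrounds of 5.62% of all genes higher and 10.7% lower. With each array centred on its median, these were 0.62 and 70. The 54 RP genes among the 100 brightest genes fill the top of each array. Over those 100 genes the median change was 0.02 after quantile normalization and 0.43 as deposited, whereas the 4656 genes beyond the 1000 brightest had medians of 0.04 and 0.05. As deposited, all 81 RP genes had a positive change, from 0.11 to 1.06, and after quantile normalization 77 did. By subunit, 11 of 47 large-subunit genes (median 0.25) and 10 of 34 small-subunit genes (median 0.23) were called higher after quantile normalization.

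**Figure D2:**
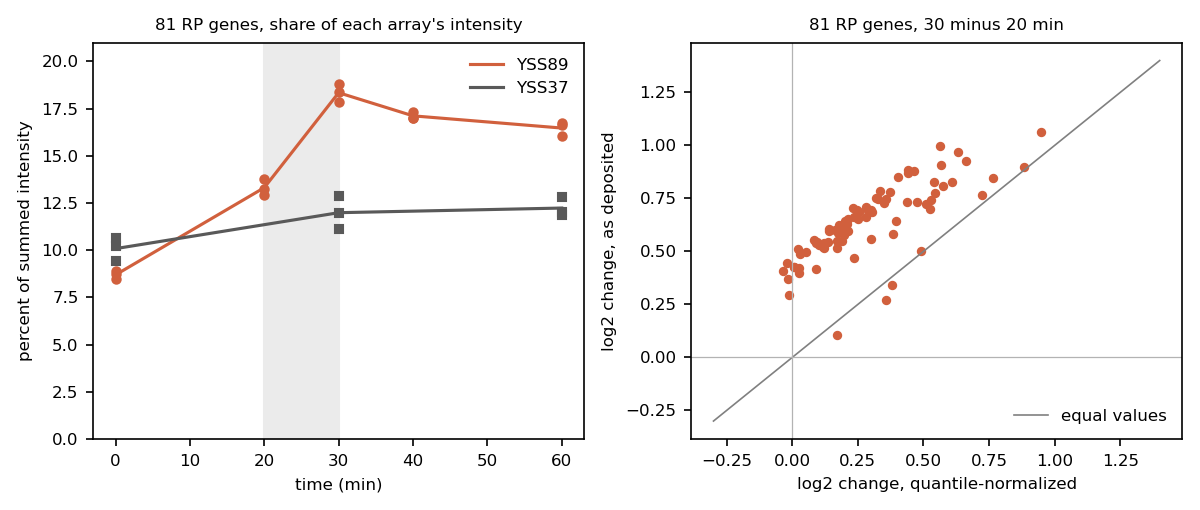
Left, share of each array's summed deposited intensity held by 81 RP genes (percent) against time (min), with points for single arrays and lines through the means of YSS89 (orange) and YSS37 (grey); the step studied is shaded, and the YSS89 share goes from 13.3% to 18.3% across it. Right, log2 change from 20 to 30 min of the same genes after quantile normalization (x axis) and as deposited (y axis), with a line at equal values; 78 of 81 genes lie above it.

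RPL36B had the largest called RP change, 0.95 ± 0.15 (adjusted p = 3.5e-04), from 691.8, 524.1 and 565.6 to 1267, 1169 and 1268. RPL9A rose by 0.88, RPS26B by 0.77, RPL9B by 0.72, RPL13A by 0.66, RPS10B by 0.61, RPS0A by 0.57 and RPS28A by 0.56. Of the 138 RP genes listed, 57 have no probe set of their own here, since most RP genes come in near-identical pairs. For 30 of the 81 the probe set carries a suffix that marks possible cross-hybridization, so a value may hold its paralog too. Another 59 probe sets name several RP genes only, and 11 of them were higher and 0 lower, with a median of 0.23. With the ACT1 ratio as a covariate the RP median was 0.29 and 7 genes were called, and without replicate b at 20 min it was 0.23 with 10 called. The share of all genes called higher is not given for either fit, so these counts do not show whether RP genes stood out there.

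After quantile normalization the median RP change was 0.43 over the first 20 min, 0.25 over this step, 0.01 from 30 to 40 min and -0.03 from 40 to 60 min. In YSS37 it was 0.18 from 0 to 30 min. Of 73 genes listed as mitochondrial RP genes none rose and 2 fell, MRP8 by 0.76 and KGD4 by 0.71. Neither is a secure member of the list. KGD4 is now known as a subunit of alpha-ketoglutarate dehydrogenase, and MRP8 as a protein of unknown function. The median of the 73 genes was -0.02, and its sign turned under several settings.

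Genes for making ribosomes were also higher at 30 min. Of 70 genes of small-subunit assembly 21 rose (30%, against 6.38% of all genes) and 0 fell (median 0.44). DHR2, an RNA helicase of 18S rRNA maturation, went from 58, 32.6 and 48.6 to 126.3, 90.9 and 96.6 (1.22 ± 0.28, adjusted p = 0.0071). UTP5, of the processome, rose by 1.05 and the helicase gene HAS1 by 0.89. Of 79 genes of large-subunit assembly 17 rose (21.5%) and 0 fell, and all 79 changes were positive (median 0.46). PWP1 rose by 0.90, RRP14 by 0.77, RRS1 by 0.74 and ARX1, of nuclear export, by 0.71. Of 36 genes for subunits of RNA polymerases I and III, their initiation factors and the repressor Maf1, 11 rose (median 0.35), among them RPA12 at 0.72, RPC31 at 0.71, RPA49 at 0.66 and RPA135, the second-largest subunit of polymerase I, at 0.62.

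These counts were less stable than the medians. With the values as deposited 11, 4 and 4 genes of the 3 lists were called, with medians of 0.38, 0.41 and 0.31. In that setting 5.62% of all genes were called higher, so the count for large-subunit assembly was near the share over all genes. With the ACT1 ratio as a covariate 5, 2 and 2 were called, and without replicate b at 20 min 7, 1 and 1. The share over all genes is not given for either fit, so these counts do not show whether the lists stood out there. In YSS37 the median of small-subunit assembly genes was 1.11 from 0 to 30 min, against 0.18 over the first 20 min in YSS89. The strains started apart. At time 0 the list's median log2 level relative to all genes was -0.58, -0.53 and -0.24 in YSS37 and 0.47, 0.67 and 0.70 in YSS89. It was 0.75, 0.61 and 0.77 in YSS37 at 30 min and 0.95, 0.78 and 0.86 in YSS89 at 20 min. Those values come from different strains and spans and were not tested against each other.

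Translation factor genes rose more often than genes at large and fell less often. Of 47 translation factor genes 7 rose (14.9%, against 6.38% of all genes). Only 2 fell (4.26%, against 10.4% of all genes), and the median was 0.30. TIF4631, which encodes eIF4G, rose by 0.68, the eIF3 gene NIP1 by 0.64 and PAB1, for poly(A)-binding protein, by 0.57. HEF3, a dim second copy of elongation factor 3, fell by 1.14. HYP2, which encodes eIF5A, was called lower at -0.36 after quantile normalization, but its deposited intensities were 4281, 4360 and 3996 and then 4065, 4699 and 4541, and its change was 0.07 as deposited and 0.06 with median centring. Of 35 aminoacyl-tRNA synthetase genes 7 rose and 0 fell (median 0.24), with ILS1 at 0.54, ALA1 at 0.52, MES1 at 0.51 and TYS1 at 0.50.

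**Figure D3:**
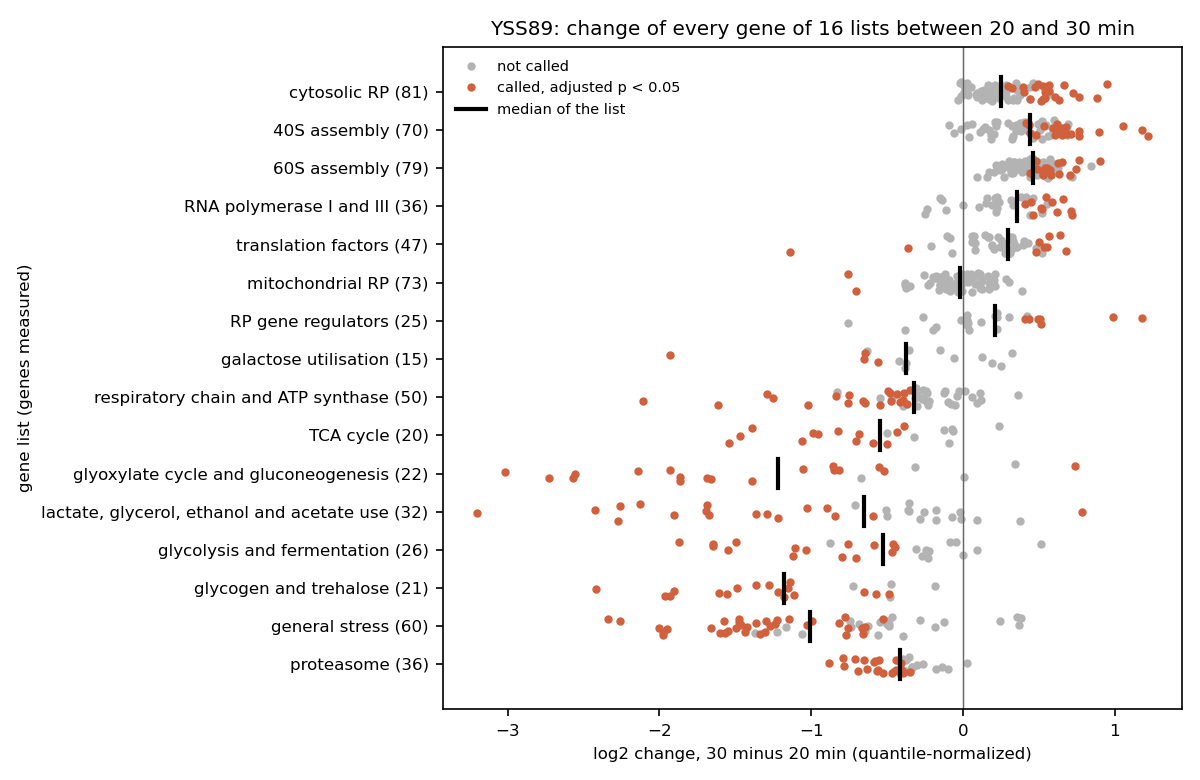
Log2 change from 20 to 30 min after quantile normalization (x axis) for every measured gene of 16 lists (rows, number of genes in brackets), with genes at an adjusted p under 0.05 in orange, the others in grey and a black bar at the list's median. Lists of ribosome synthesis lie to the right of 0 and lists of alternative carbon use, storage carbohydrates and stress to the left.

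The galactose genes had been switched on before this step and none of the 15 measured rose during it. GAL1, the galactokinase gene whose promoter drives IFH1 here, read 2260, 2213 and 2345 at 20 min and 1819, 2178 and 2344 at 30 min, after a mean of 9.47 at time 0. Its change of -0.42 did not pass (adjusted p = 0.13), and neither did those of the permease gene GAL2 (-0.63, adjusted p = 0.085), GAL7 (-0.38) and GAL10 (-0.15). Both GAL1 and GAL2 are among bright genes, and as deposited their changes were -0.11 and -0.17. GAL3, the galactose sensor, fell by 0.64 ± 0.14 from 363.3, 388.4 and 368.9 to 226.5, 251.6 and 197.5 (adjusted p = 0.0042).

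PGM2, the phosphoglucomutase gene that links galactose and glycogen to glycolysis, had the largest fall of the list. It went from 494.8, 851.9 and 536.1 to 198.8, 145 and 116, a change of -1.93 ± 0.32 (adjusted p = 4.5e-04). UGP1, which makes UDP-glucose, fell by 0.65, and LAP3, a cysteine protease gene under Gal4, by 0.56. The list's median was -0.38, after 2.24 over the first 20 min.

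Of the 10 largest falls 7 were of genes on the lists for carbon sources other than sugar and their regulators, and the other 3 were HAB1, FAT3 and GLC3. Those 7 are on lists of 32, 22 and 47 of the 5656 genes, written with earlier results of these data known. JEN1, the lactate and pyruvate permease, went from 462.5, 437.9 and 470.1 to 104, 34.8 and 32.5. That is a change of -3.20 ± 0.32 (adjusted p = 5.2e-06), the largest of all called genes whose arrays did not overlap. Its mean had been 966 at time 0 and was 25.5 at 40 min and 13.9 at 60 min. Of 32 genes for the use of lactate, glycerol, ethanol and acetate 16 fell (50%, against 10.4% of all genes) and 1 rose (median -0.65). ACH1, of acetyl-CoA metabolism, fell by 2.43, FDH1, formate dehydrogenase, by 2.27 (its probe set may also read a second copy) and MPC3, of the mitochondrial pyruvate carrier, by 2.26. ALD5, a mitochondrial aldehyde dehydrogenase, rose by 0.79.

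Of 22 genes of the glyoxylate cycle and gluconeogenesis 17 fell (77.3%, against 10.4% of all genes) and 1 rose (median -1.22). MLS1, malate synthase, read 849.1, 732 and 657.5 and then 182.3, 80.1 and 81.3 (-2.73 ± 0.45, adjusted p = 4.8e-04). FBP1, fructose-1,6-bisphosphatase, read 648.3, 621.1 and 648.3 and then 172.3, 80.3 and 81.3 (-2.57 ± 0.45, adjusted p = 8.4e-04). In both genes replicate a at 30 min read above replicates b and c, yet below every array at 20 min. CRC1, the mitochondrial carnitine carrier, fell by 3.02 and SFC1, a succinate and fumarate carrier, by 2.56. MAE1, the mitochondrial malic enzyme, rose by 0.74. Also in this group, and named after their values were seen, ICL1 (isocitrate lyase) fell by 1.93 and PCK1 (phosphoenolpyruvate carboxykinase) by 1.86.

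Some regulators of these genes fell too. CAT8, the zinc-finger activator of gluconeogenic genes, went from 36.6, 41 and 46 to 8.6, 5.1 and 7.7 (-2.43 ± 0.19, adjusted p = 1.0e-06). SIP4, which binds the same promoter element, fell by 2.03, REG2, a regulatory subunit of the Glc7 phosphatase, by 2.12 and USV1, a zinc-finger factor, by 1.54. Of 47 regulators on the list 10 fell (21.3%, against 10.4% of all genes) and 1 rose, HMS2 at 1.62. ADR1, the activator of ethanol and peroxisome genes, fell by 0.93. HAP4, the activator of respiratory genes, was at -0.11 (adjusted p = 0.69), and both of these were named after their values were seen.

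Respiration genes of the nuclear genome fell in part. Of 20 genes of the tricarboxylic acid cycle 13 fell (65%, against 10.4% of all genes) and 0 rose (median -0.55). The falls were led by IDH1 at -1.54, LSC2 at -1.47, CIT1 at -1.39 and PYC1 at -1.06. Of 50 genes of the respiratory chain and ATP synthase 20 fell (40%) and 0 rose (median -0.32). The examples were NDE2, an external NADH dehydrogenase, at -2.11, STF2 at -1.61, CYB2, the lactate dehydrogenase, at -1.29 and CYC7, a minor cytochrome c, at -1.25. Of 35 peroxisome and fatty acid oxidation genes 14 fell (40%, median -0.27), with PNC1 at -1.59, CTA1, the peroxisomal catalase, at -1.57, POT1 at -1.49 and FOX2 at -1.13. With the ACT1 ratio as a covariate 8 genes of the cycle and 10 of the chain were called, and without replicate b at 30 min 10 and 10. None of the 19 genes of the mitochondrial genome was called by limma, 1 had an unadjusted p below 0.05, and their median was 0.18.

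Glycolysis genes also fell, 15 of 26 (57.7%, against 10.4% of all genes) with 0 rising (median -0.53). These were led by HXK1 at -1.87, GLK1 at -1.65 and ENO1 at -1.64, which went from 2100, 3257 and 2110 to 845.6, 672.4 and 782.7. As deposited, 11 were called, in a setting that called 10.7% of all genes lower, and the median was -0.33. Among pentose phosphate genes the second copies TKL2, NQM1, SOL4 and GND2 fell by 2.12, 2.05, 1.97 and 1.76, while the major transketolase gene TKL1 rose by 0.45 and PRS1 by 0.56. Of 16 hexose transport genes, sensors and regulators included, 5 fell (31.2%, against 10.4% of all genes). Another 2 rose (12.5%, against 6.38%), 9 were not called, and the list's median was -0.36. HXT5 fell by 1.30, HXT3 by 1.10, HXT7 by 0.89 and HXT6 by 0.88, and HXT6 and HXT7 are near-identical and share signal. The other 6 transporter genes measured, HXT1, HXT2, HXT4, HXT8, HXT10 and HXT14, were dim and not called. The sensor gene RGT2 and the regulator gene STD1 rose by 0.56 and 1.04.

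Most storage carbohydrate and stress genes fell. Of 21 glycogen and trehalose genes 17 fell (81%, against 10.4% of all genes) and all 21 changes were negative (median -1.18). GLC3, the glycogen branching enzyme, read 163, 267.4 and 212.7 and then 63.5, 35 and 26.8 (-2.41 ± 0.28, adjusted p = 2.1e-05). GPH1, glycogen phosphorylase, fell by 1.96 and GSY1, a glycogen synthase, by 1.90. Of 60 general stress genes 35 fell (58.3%) and 0 rose (median -1.01). Among the falls were the zinc-finger gene YGR067C at -2.34, MPC3 at -2.26 and SPG4 at -1.98. The median change of the glycogen and trehalose genes had been -0.32 over the first 20 min and was -0.01 from 30 to 40 min. In that later step 0 of the 21 genes were called either way. The list's median log2 level relative to all genes still went lower. It was -0.09, -0.22 and -0.24 on replicates a, b and c at 30 min and -0.65, -0.96 and -0.65 at 40 min. These measures differ, so the median change alone does not show that the fall had ended at 30 min.

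Proteasome genes dipped at 30 min. Of 36 genes 21 fell (58.3%, against 10.4% of all genes) and 0 rose (median -0.41). PRE5, of the core particle, read 262.4, 327.1 and 277.5 and then 168.2, 168.5 and 140.9 (-0.79 ± 0.14, adjusted p = 7.6e-04), and its mean was 209 at 40 min and 326 at 60 min. RPN8 and RPN2, of the regulatory particle, fell by 0.88 and 0.79, and PRE10 by 0.71. For 31 of the 36 genes (86.1%) the mean at 30 min was the lowest of the 5 times, against 18.0% of all genes. The list's median was 0.21 from 30 to 40 min and 0.43 from 40 to 60 min. In YSS37 it was -0.14 from 0 to 30 min. RPN4, the activator of these genes, was at 0.03 (adjusted p = 0.94), a gene named after its value was seen. Without replicate b at 20 min 11 proteasome genes were called, and 11 were called without replicates b or c at 30 min and with the ACT1 ratio as a covariate.

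Chaperones did not move as a group, and their median was 0.06. Of 44 genes 5 were lower (11.4%), near the 10.4% of all genes. Only CCT6 was higher, at 0.42 (2.27%, against 6.38% of all genes). HSP104, the disaggregase, read 130.4, 127.7 and 161.6 and then 67.3, 60.2 and 57.9 (-1.14 ± 0.13, adjusted p = 1.6e-05), and was back at a mean of 141 at 40 min. SSA1, an Hsp70 gene whose probe set may also read its close paralog, and SSE2 both fell by 0.98 and HSP31 by 0.96. In the next 10 min 15 of the 44 were higher, and the median change was 0.32, against 0.01 over all genes. The share of all genes called higher in that next step is not given here.

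**Figure D4:**
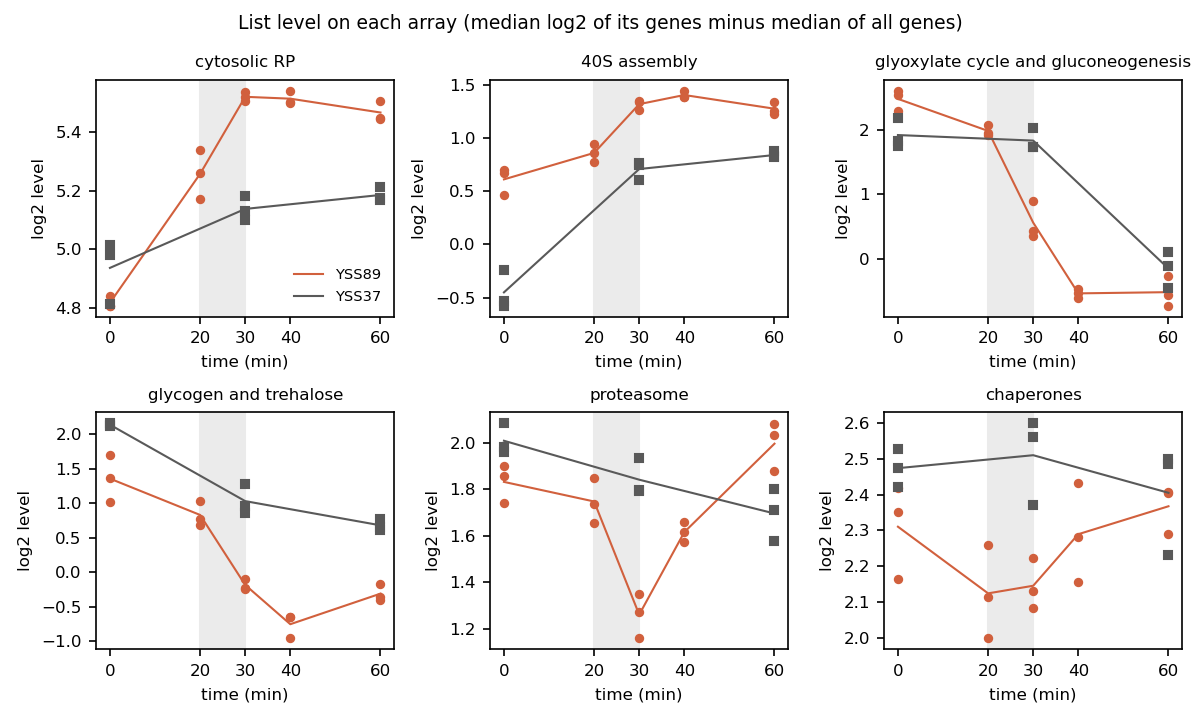
Level of 6 gene lists on each array (median log2 value of the list minus that of all genes, y axis) against time (min, x axis) in YSS89 (orange) and YSS37 (grey), with points for arrays, lines through the means and the step studied shaded. Proteasome genes in YSS89 are lowest at 30 min and climb afterwards, and glyoxylate and gluconeogenesis genes go on falling to 40 min.

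Genes of amino acid synthesis rose more often than genes at large, and their falls were near the share over all genes. Of 72 genes of amino acid synthesis other than methionine 14 rose (19.4%, against 6.38% of all genes). Another 8 fell (11.1%, against 10.4% of all genes), and the median was 0.23. With the ACT1 ratio as a covariate 7 rose and 5 fell, and without replicate b at 20 min 6 and 6. Rises were LYS21 of lysine synthesis at 0.80, LEU9 at 0.78, AAT1 at 0.77 and ARO4 at 0.67. Falls were GDH2, the NAD-linked glutamate dehydrogenase that breaks glutamate down, at -1.82, GDH3 at -1.15 and the aminotransferase genes ARO9 at -1.07 and BAT2 at -0.98. The methionine permease gene MUP1 went from 145.6, 149.7 and 77.7 to 278.4, 240.1 and 229.2 (1.16 ± 0.21, adjusted p = 0.0012), and 5 of 41 sulfur genes rose and 0 fell. Permease genes PUT4, for proline, and DIP5, for dicarboxylic amino acids, fell by 1.80 and 1.86. In nucleotide synthesis IMD4 rose by 0.99 and URA7 by 0.90, while GCV1 and GCV2 of glycine cleavage fell by 0.72 and 0.71.

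Cell cycle genes rose in modest numbers. Of 58 genes of G1 and S phase 8 rose (13.8%, against 6.38% of all genes) and 0 fell (median 0.24). The largest rises were CDC6 at 0.87, YOX1 at 0.76, PCL1 at 0.75 and the G1 cyclin gene CLN1 at 0.67. As deposited 5 of the 58 rose and 1 fell, where 5.62% of all genes were called higher and 10.7% lower. Without replicate c at 30 min, and with the ACT1 ratio as a covariate, 0 of these 58 were called. Of 42 genes of G2, mitosis and cell separation 9 rose (21.4%) and 0 fell (median 0.19), among them PRY3 at 0.83 and SCW11 at 0.58. Of 35 sporulation genes 1 rose and 1 fell (2.86% each, against 6.38% and 10.4% of all genes). Of 59 snRNA and snoRNA genes 0 were called by limma, 1 of them having an unadjusted p below 0.05. ASG7, an a-cell gene, fell by 2.08, from 6.7 to 13.7 down to 1.2 to 1.8, near the bottom of the scale.

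Among the 10 largest rises several genes were dim. TOS2, of polarized growth, was at 2, 0.6 and 0.9 and then at 10, 10.1 and 7.9 (1.98 ± 0.41, adjusted p = 0.0030). KRE29, of the Smc5-Smc6 complex, was at 0.3 to 1.4 and then 4.5 to 6, and RIF2, a Rap1-binding telomere protein, at 0.6 to 2.1 and then 3.9 to 7.1. Both rises rest on intensities close to the pseudocount of 1.4. INO2, the activator of phospholipid synthesis genes, was at 14.6, 12 and 8.2 and then at 38.6, 29.8 and 32.9 (1.41). GIC2, an effector of Cdc42, rose by 1.21 and SAP185, a partner of the Sit4 phosphatase, by 1.14. Among the largest falls HAB1 fell by 3.06, from 14 to 26 down to 0.5 to 1.7, and FAT3 fell by 2.71.

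Long genes made up more of the rises than of the genes measured. Genes of at least 3000 bp were 8.43% of all genes and 14.7% of those that rose, 53 of 361. The share of genes called higher was 2.67% under 500 bp, 12.1% from 3000 bp to under 4500 bp and 8.46% beyond that. The median change went from -0.02 in the shortest bin to 0.16 in the longest. Probe sets of one long gene also disagreed more, with a median spread of 1.02 between the probe sets of 85 long genes and 0.35 for 230 shorter ones. GCN1, of the response to amino acid shortage, ran from 0.01 to 1.45 over 9 probe sets, of which 3 were called, and its brightest one gave 0.55. The 3' to 5' ratio of ACT1 moved over the same step, as given above, and its part in the length pattern was not tested. RP genes are short, with a median length of 755 bp, whereas small-subunit assembly genes had a median of 1588 bp.

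**Figure D5:**
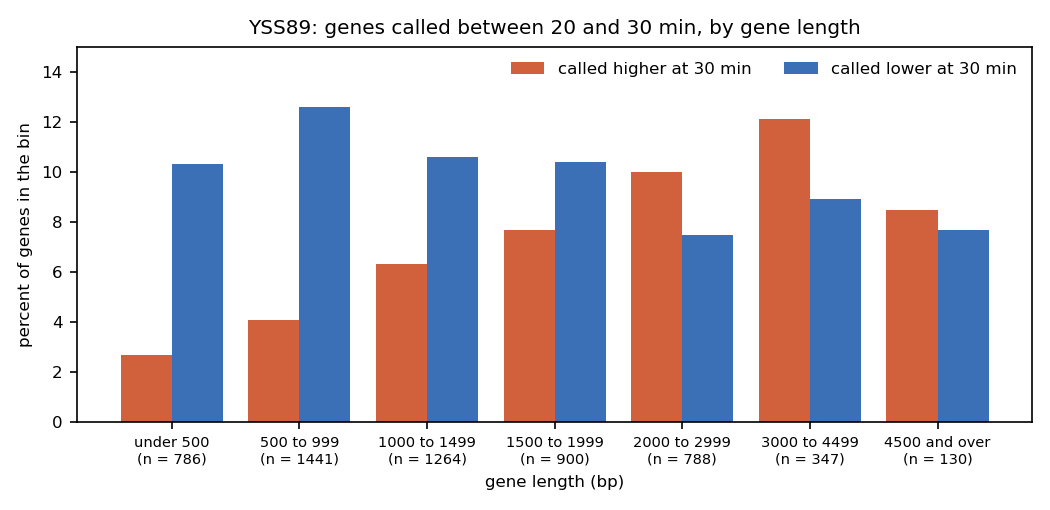
Percent of genes called higher (orange) and lower (blue) at 30 than at 20 min in YSS89, by gene length in bp (x axis, number of genes in brackets). The share called higher climbs from 2.67% in the shortest bin to 12.1% from 3000 bp to under 4500 bp and is 8.46% in the longest.

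The step was then set against the next one of equal length, 30 to 40 min, in a contrast of the changes. For 55 probe sets (0.593%) the change from 20 to 30 min was higher than the change that followed and for 212 (2.29%) it was lower. By list, 12 of the 32 genes of lactate, glycerol, ethanol and acetate use, 10 of the 36 proteasome genes, 8 of the 44 chaperone genes and 7 of the 21 glycogen and trehalose genes were among the lower. CAT8 fell by 2.43 and then changed by 0.06 (adjusted p of the difference 5.8e-04), and ACH1 fell by 2.43 and then changed by -0.01 (adjusted p = 0.0020). FBP1 changed by -2.57 and -2.45 and MLS1 by -2.73 and -1.98 in the same order, and neither difference passed (adjusted p = 0.97 and 0.71). For 3 of the 81 RP genes the difference was called, each with the earlier change higher. Both steps use the arrays at 30 min, so an error in those arrays moves the changes in opposite directions.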

How the data were processed

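Affymetrix YG_S98 arrays with 1 colour measured total RNA labelled by in vitro transcription, per the labels. The deposited table holds 1 linear intensity per probe set, scaled to a common level on every array. How probes were summarised is not given in the sources used here. The instrument files were used only for hybridization rounds and chip lots, per the file headers. Round 2 held replicates a and b at 20 min and a at 30 min, and round 3 replicate c at 20 min and b and c at 30 min.

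Of the 9335 probe sets 60 controls were left out, which left 9275, of which 6504 named 1 gene, 328 several and 2443 none, by the platform annotation. Values were taken as log2 of the intensity plus 1.4 (the 10th percentile) and quantile normalized. With limma 3.58.1 in R 4.3.3, 8 group means were fitted over all 24 arrays, with moderated tests and Benjamini-Hochberg adjustment over all probe sets, called at an adjusted p under 0.05. The median SE of the step was 0.21. The brightest probe set naming 1 gene stands for that gene (5656 genes). In simulated data for this step over 9275 probe sets, 67.9% of 109 changes of log2 size 1 and 91.2% of 91 of size 2 were recovered. The simulated noise was independent between probe sets, with no normalization step and no error shared across an array. Recovery in the real data may therefore differ.

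Named genes follow a rule: the 10 largest non-overlapping changes each way, the 5 largest each way of the difference of steps, all RP regulators and galactose genes, and up to 4 called members of a list each way. Some of these are left unnamed, and a few genes added after their values were seen are marked as such. The members and the 37 lists were chosen with earlier results of these data known. The replicates are biological per the labels, and 3 arrays a group limit the precision. Replicate letters did not pair the samples, with same-letter correlations of 0.05, 0.01 and 0.06. No 2 of the 6 arrays were copies of each other, since at least 98.1% of probe sets had unequal values. Other scalings, pseudocounts, filters, blocks, weights, the ACT1 ratio and each array left out were tried as alternatives.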

Additional observations from a re-analysis of the deposited data

Results flagged for a closer look

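Between the step from 20 to 30 min and the next one, 267 probe sets differed by the limma contrast of the changes. Values are the change from 20 to 30 min minus the change from 30 to 40 min on the log2 scale, and both changes share the arrays at 30 min. The 5 largest negative values were -3.69 for HAB1, -3.42 for PHO3 (an acid phosphatase), -3.08 for SDP1 (a stress MAP kinase phosphatase), -3.04 for PMT3 (a protein O-mannosyltransferase) and -2.71 for RTC3. PHO3 read 280.2, 270.7 and 268.9 at 20 min and 69.8, 57 and 69.1 at 30 min, and was at a mean of 171 at 40 min. The 5 largest positive values were 2.07 for UTP22, 1.67 for YER137C, 1.65 for the noncoding RNA YNCJ0015W, 1.61 for SPR2 and 1.46 for MNL1. SPR2 lay between 0.4 and 3.1 on the 6 arrays, and HAB1 between 0.5 and 1.7 at 30 min, both near the bottom of the scale. UTP22 went back to a mean of 232 at 40 min, and MNL1 read 143.9, 133.2 and 143.6 and then 190.7, 218.7 and 218.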

How the results depend on the processing

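The step gave 1137 called probe sets, and the count was 1171 with the values as deposited, 1150 with median centring, 707 with only the 6 arrays in the fit, 1757 with array weights, 522 with the ACT1 ratio as a covariate, and 161 and 280 within hybridization rounds 2 and 3 alone. Leaving out 1 array gave 647 to 960. The difference of steps gave 267, and the count was 403 as deposited, 628 with array weights, 117 with the ACT1 ratio, 1 and 73 within rounds 2 and 3, and 97 to 267 without 1 array (168 without replicate b at 20 min, 122 and 97 without replicates b and c at 30 min). With a replicate block by letter the counts were 1186 and 272. The RP median of 0.25 was 0.63 as deposited and 0.62 with median centring, 0.27 and 0.26 within the rounds and 0.23 to 0.29 without 1 array. HYP2 turned sign, at 0.072 as deposited and 0.060 with median centring. The mitochondrial RP median of -0.02 became 0.0062 with the round as a block, 0.14 within round 2, 0.060 with the ACT1 ratio, and -0.14 to 0.060 without 1 array. Chip lot as a block (1211 calls) and genes under 3000 bp alone (1131) were chosen after seeing the data. Of the named results 159 were called, of which 145 kept their call as deposited and 105 with the ACT1 ratio. The causes were not tested. Intensities near 1.4 have little precision.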
